A study of Mus musculus with 19 samples.

Results

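The aquaporins Aqp1, Aqp3, Aqp4 and Aqp5 were described in the cornea and conjunctiva of mice on calorie restriction (CR) or fed ad libitum (AL). All 4 gene symbols were found in both expression tables, which share 24547 gene symbols. The other 8 aquaporins of the tables served as the comparison set. The 4 genes were picked with their diet changes in these same libraries known, Aqp5 because its change had opposite signs in the 2 tissues. Diet changes of the 4 genes are therefore given as descriptions with no p-value. How many of them the model over all genes called is given once for each tissue, and nothing is read from it.

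Adult female C57BL/6J mice received unrestricted chow or a diet cut by 40% for 4 months, from 6 to 7 months until 10 to 11 months of age. The sample titles carry the tokens 6M and 50W, and the series text calls the animals young. The study used 2 cohorts, in one of which the restricted chow was enriched in vitamins and micronutrients, and which cohort was sequenced is not given in the sources used here. Corneal epithelium was obtained by scraping and the conjunctiva by excision, so the latter holds epithelium with stroma, vessels and attached muscle. The groups were cornea AL (n = 5), cornea CR (n = 5), conjunctiva AL (n = 4) and conjunctiva CR (n = 5), 19 libraries in all. Libraries are named by tissue, diet and animal number.

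Aquaporins are membrane channels that let water follow osmotic gradients. Aqp1 and Aqp4 pass water, Aqp3 also passes glycerol, and Aqp5 is the apical water channel of lacrimal and salivary acini and of the corneal epithelium. In the eye, Aqp1 is known from vascular and corneal endothelium and keratocytes, Aqp3 from basal cells of surface epithelia, and Aqp4 from glia, conjunctival epithelium and fast muscle fibres.

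Aqp5 lies at chr15:99591028-99594829 on the plus strand of GRCm38.p6, between 2 related genes. The Aqp2 gene ends 6483 bases before the Aqp5 start, and Aqp6 starts 3639 bases after the Aqp5 end. RefSeq places the long non-coding gene Gm34765 across all 3, which the expression tables do not list. Where counting did not use strand, reads from Aqp5 and Gm34765 could not be told apart. The strand of Gm34765 was not looked up, so whether counting by strand would part them is not known here. Aqp3 lies at chr4:41092724-41098183 on the minus strand and Aqp1 at chr6:55336299-55348555 on the plus strand, and neither overlaps another RefSeq gene. Aqp4 overlaps A830021F12Rik.

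To show what stands before Aqp5 and Aqp3, the leading aquaporins of the cornea and the conjunctiva, 30-base windows are printed for both and for the 2 neighbours of Aqp5. They come from the RefSeq promoter table, which held Aqp1, Aqp3 and Aqp5 of the 4 genes, and each is written 5′ to 3′ on the strand of its gene. In the first 3 windows the capitals mark the E-box CACGTG, the element bound by clock and MYC family factors. In the last they mark the TATA box TATAAA.
Aqp5, chr15:99590929-99590958, plus strand: tgccgcgtgggtCACGTGgcccgggcgggt
Aqp2, chr15:99578986-99579015, plus strand: cctcctccacccCACGTGcccaggtctacg
Aqp6, chr15:99601159-99601188, plus strand: agctggaacagaCACGTGagcactctgaac
Aqp3, chr4:41098195-41098224, minus strand: gcaggctgagcgTATAAAgggcgccacctg

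The E-box begins 87 bases before the annotated Aqp5 start, 58 before that of Aqp2 and 29 before the Aqp6 start of the promoter table, which lies inside the annotated Aqp6 gene and not at its first base. Aqp8 also has one, 75 bases before its start. Searched on both strands, CACGTG occurs within 250 bases upstream of 6.02% of 32851 mouse promoters. The Aqp3 TATA box begins 29 bases before the start, and 12.4% of promoters hold TATAAA in the same span. No match was found before Aqp1, Aqp3 or Aqp5 for the D-box TTANGTAA, the palindromic glucocorticoid response element, the nuclear receptor core AGGTCA or the tonicity element core TGGAAA, which occur in 2.06%, 0.00913%, 14.0% and 18.6% of promoters. The 250 bases before Aqp5 are 78.4% G or C, against 64.0% for Aqp3, 62.0% for Aqp1 and a median of 52.4% over all promoters. These matches describe the sequence and do not show a bound site.

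Counted reads numbered 10353873 to 14680980 per corneal library and 10726357 to 14433080 per conjunctival library. Between 38.7% and 47.6% of genes had 0 reads in a corneal library and between 33.6% and 40.1% in a conjunctival one. Cornea AL 4 stood apart from the other AL corneas with 45.1%, and cornea CR 1 from the other CR corneas with 39.9%. Cornea AL 1 had 27363 summed normalized counts of 11 lacrimal gland markers, where the other corneas had 56.7 to 776. Conjunctiva CR 5 had 11370 of 6 meibomian gland markers, where the other conjunctivas had 4.54 to 295. Summed corneal epithelium markers ran from 507167 to 730962 in the corneas and from 100179 to 154737 in the conjunctivas, and 7 marker genes of keratocytes and fibroblasts passed the filter in the cornea against 9 in the conjunctiva. The 4 hemoglobin genes of the red cell list were at 0 in every library, and nothing on blood content is read from that. Alas2, of the same list, averaged 348 ± 248 in AL (SD, n = 4) and 862 ± 430 in CR conjunctivas (SD, n = 5). The list summed to 107 to 668 in AL and 574 to 1677 in CR conjunctivas. In the corneas it summed to 24.0 to 55.7 under AL and 4.64 to 92.3 under CR. Levels below are normalized counts, meaning reads scaled by one factor for each library within its own tissue table, and 3 reads correspond to 2.27 to 3.37 normalized counts.

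Aqp5 was the leading aquaporin of the corneal epithelium and Aqp3 that of the conjunctiva. Per kilobase of exon, and over both diets, Aqp5 ranked 30 and Aqp3 79 of 12131 corneal genes with a length. In the conjunctiva, Aqp3 ranked 83, Aqp5 748, Aqp1 1734 and Aqp4 3819 of 13759. Of all aquaporin reads per kilobase, Aqp5 made up 81.2% ± 4.5 (SD, n = 5) in AL corneas and 8.94% ± 1.14 (SD, n = 4) in AL conjunctivas. Aqp3 made up 18.5% ± 4.5 (SD, n = 5) and 83.5% ± 2.2 (SD, n = 4) in the same groups. The 4 genes together accounted for 99.7% of aquaporin reads per kilobase in either tissue. A per-length value assumes reads spread along the transcript. The sample labels name a stranded mRNA kit and the methods a kit primed on the poly(A) tail, so this was not settled.

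**Figure D1:**
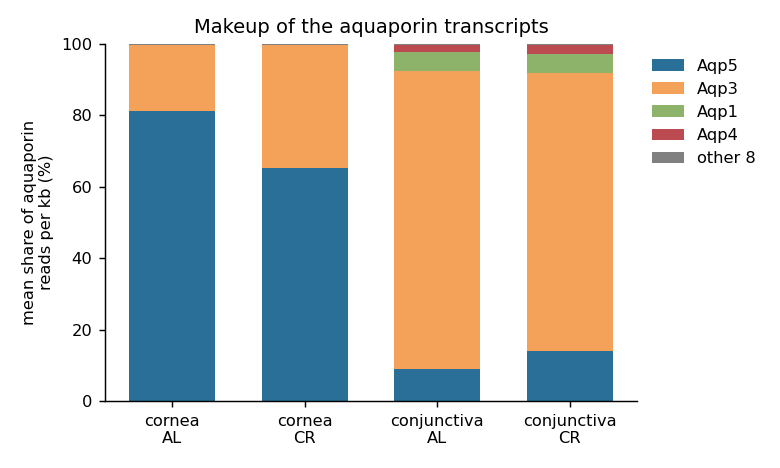
Mean share of aquaporin reads per kilobase (y axis, %) in each of the 4 groups (x axis), stacked by gene, with the other 8 aquaporins in grey. Aqp5 takes 81.2% and 65.2% of the AL and CR corneas, and Aqp3 83.5% and 78.0% of the AL and CR conjunctivas.

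Ratios of 2 aquaporins inside a library cancel its scaling and could be tested between tissues. Aqp5 reads per Aqp3 read were 9.63, 4.99, 5.61, 4.82 and 8.29 in the AL corneas 1 to 5, and 0.152, 0.122, 0.177 and 0.160 in the AL conjunctivas 1, 3, 4 and 5. Every cornea thus had more Aqp5 than Aqp3 reads and every conjunctiva fewer. On the log2 scale the tissues differed by 5.40 under AL, a 42.3-fold difference in the ratio (exact permutation test, two-sided, p = 0.0159, adjusted p = 0.0173). Under CR the ratios were 3.57, 3.04, 2.33, 2.63 and 2.18 in corneas 1, 2, 3, 4 and 7, and 0.191, 0.203, 0.304, 0.264 and 0.325 in conjunctivas 1 to 5. The tissues differed there by 3.43 on the log2 scale, or 10.7-fold (exact permutation test, two-sided, p = 0.00794, adjusted p = 0.0173). Both p-values are the smallest these group sizes allow. Because cornea and conjunctiva libraries with the same diet and number may come from 1 animal, the test treated as independent what may be paired, and an exact paired test over 4 animals cannot pass below p = 0.125.

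**Figure D2:**
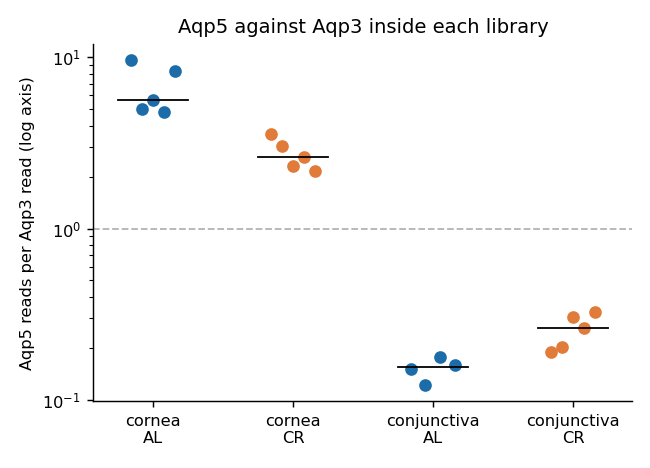
Aqp5 reads per Aqp3 read in each library (y axis, log scale) by tissue and diet (x axis), with points for libraries, bars for group medians and a dashed line at equal reads. All 10 corneas lie above the line and all 9 conjunctivas below it, with medians of 5.61, 2.63, 0.156 and 0.264 from left to right.

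In all, 12 ratios were tested (6 pairs of genes in each diet), and 11 differed between tissues at an adjusted p of 0.0173 with no overlap. The 6 ratios of a diet share the same genes, so the 11 are not separate results. Of the 11, 5 involve Aqp4, which had few corneal reads, and the other 6 do not. Relative to Aqp1, corneal Aqp5 was 1128-fold higher than conjunctival Aqp5 under AL and 984-fold higher under CR, the latter 652-fold without cornea CR 2 and 1598-fold without cornea CR 7. Relative to Aqp1, corneal Aqp3 was 26.6-fold higher under AL and 91.6-fold higher under CR, the latter 62.5-fold without cornea CR 2 and 141-fold without cornea CR 7. The ratio of Aqp1 to Aqp4 differed 6.11-fold under AL, with 1 read added to both because 2 AL corneas had 0 Aqp4 reads. In CR mice it differed by -0.09 on the log2 scale, with overlap (exact permutation test, two-sided, p = 0.889, adjusted p = 0.889). Corneal Aqp1 and Aqp4 rest on few reads, from 2 to 62 and from 0 to 17 per library.

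Aqp5, the apical water channel, was lower in CR than in AL corneas. Its normalized counts were 51183, 47407, 41589, 30146 and 51562 in AL corneas 1 to 5, a mean of 44377 ± 8908 (SD, n = 5). They were 30516, 27604, 26924, 36184 and 23368 in CR corneas 1, 2, 3, 4 and 7, a mean of 28919 ± 4792 (SD, n = 5). All 5 CR corneas lay under the AL mean, but AL 4 lay below CR 1 and CR 4, so the groups overlapped. The log2 change, CR minus AL, was -0.61 ± 0.15 (SE), with a 95% interval of -0.91 to -0.30, which is 0.657 of the AL level. Aqp5 was the only one of the 3 tested members called in the cornea (limma, adjusted p under 0.05 and fold over 1.5), where 1.22% of 12277 genes were called. Under 20 other settings Aqp5 was called in 8 and not in 12, and Aqp3 was called in 6. The members were chosen on this contrast, so nothing is read from these counts.

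The corneal Aqp5 level moved with the share of genes at 0 reads. AL corneas 1, 2, 3 and 5 had 38.7% to 40.7% of genes at 0 and 41589 to 51562 Aqp5 counts, whereas AL 4 had 45.1% and 30146. Among CR corneas, the 3 with the lowest Aqp5, numbers 2, 3 and 7, had 45.6% to 47.6% of genes at 0. CR 1 had 39.9% of genes at 0 and 30516 Aqp5 counts, below every AL cornea except AL 4. With that percentage added to the model, an alternative chosen after seeing the data, the log2 change was -0.32 ± 0.12 (SE). Without AL 4 it was -0.74, without AL 1, the cornea with the highest lacrimal markers, -0.55, and without CR 1 it was -0.63. Leaving out AL 1 does not remove all lacrimal signal. The lacrimal list summed to 113 to 27363 in AL and 56.7 to 413 in CR corneas. All 5 of its genes tested had a lower log2 mean under CR. Limma called 0 of these 5 and 1.22% of all corneal genes tested. The part of lacrimal tissue, RNA quality or yield in the difference was not tested. In bulk tissue, fewer cells of a type and less RNA per cell cannot be told apart.

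In the conjunctiva Aqp5 had the opposite order. Normalized counts were 1246, 1367, 1534 and 1490 in AL conjunctivas 1, 3, 4 and 5, a mean of 1409 ± 130 (SD, n = 4). They were 2130, 1919, 1818, 2625 and 2261 in CR conjunctivas 1 to 5, a mean of 2151 ± 317 (SD, n = 5). Every CR library was above every AL library, as was the case for 1.92% of the 13928 conjunctival genes tested, and nothing is read from this because Aqp5 was picked on its diet change. The log2 change was 0.60 ± 0.14 (SE), with a 95% interval of 0.30 to 0.90, or 1.52-fold. None of the 4 members was called in the conjunctiva (limma), where 0.359% of genes were, and nothing is read from that count either. The change in the conjunctiva exceeded that in the cornea by 1.21 on the log2 scale (95% interval 0.79 to 1.62), a difference the choice of Aqp5 fixed and which was not tested. That interval treats the tissues as independent, although same-numbered libraries of a diet may come from 1 animal.

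Stromal markers also differed by diet in the conjunctiva. Summed keratocyte and fibroblast markers were 39863 to 59642 in AL and 26195 to 51694 in CR conjunctivas, and all 9 had a lower log2 mean under CR. Of the 9, limma called 2, the fibrillar collagens Col1a1 at a log2 change of -1.37 (adjusted p = 0.00592) and Col3a1 at -1.57 (adjusted p = 0.00337). It called 0.359% of all conjunctival genes tested. The median log2 change was -0.745 for the list and -0.016 over all genes tested. Summed corneal epithelium markers, which include the basal keratins Krt5 and Krt14, were 105306 to 124531 in AL and 100179 to 154737 in CR conjunctivas. Per 1000 normalized counts of those epithelial markers, Aqp5 was 10.6, 11.8, 14.6 and 11.96 in AL conjunctivas 1, 3, 4 and 5. It was 17.0, 14.5, 18.1, 17.0 and 14.7 in CR conjunctivas 1 to 5. On this scale the groups overlapped, since AL 4 lay between CR 2 and CR 5. In the cornea the same measure was 68.2 ± 14.4 (SD, n = 5) under AL and 45.3 ± 4.8 (SD, n = 5) under CR, with AL 4 at 43.0 inside the CR range of 40.1 to 50.1. Of the 8 genes tested from the list used for scaling, 5 were higher and 3 lower under CR in the conjunctiva. Among them Aldh3a1 averaged 34669 ± 5759 under AL (SD, n = 4) and 46515 ± 8071 under CR (SD, n = 5). Summed conjunctival epithelium and goblet markers, to which Aqp5 was not scaled, were 34982 to 73136 in AL and 29110 to 75998 in CR conjunctivas. How much of the Aqp5 difference goes with tissue makeup was not tested.

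**Figure D3:**
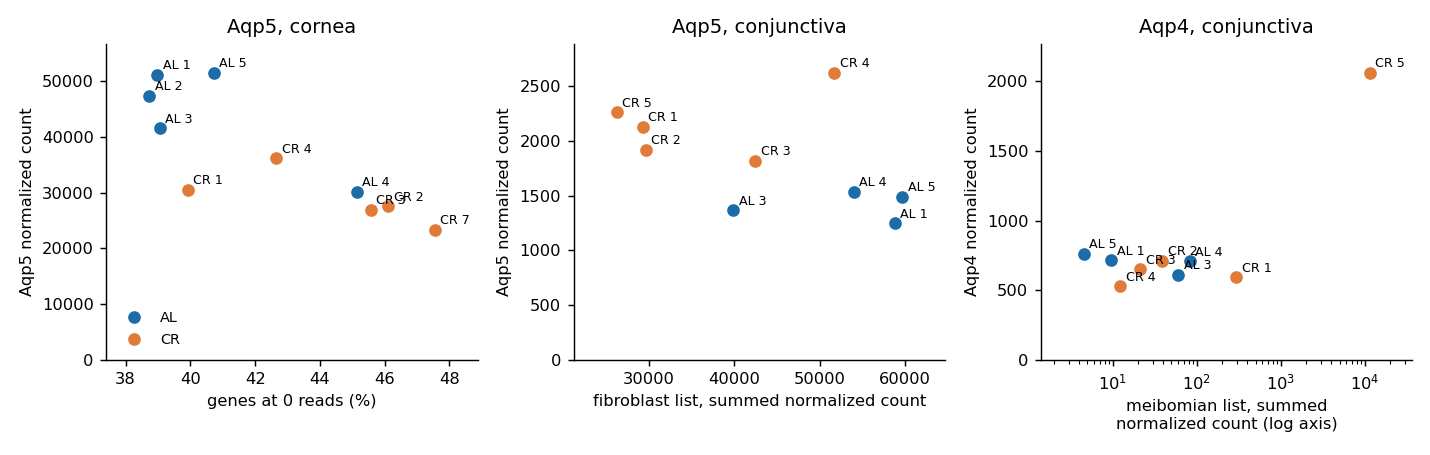
Aqp5 normalized count against the percentage of genes at 0 reads in the corneas (left), Aqp5 against summed keratocyte and fibroblast markers in the conjunctivas (middle), and Aqp4 against summed meibomian markers on a log axis in the conjunctivas (right), with 1 labelled point per library. AL 4 sits among the CR corneas at 45.1% and 30146 counts, and CR 5 sits alone at 2063 Aqp4 counts.

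Aqp3, the water and glycerol channel, had the reverse pattern to Aqp5 in the cornea. Its normalized counts were 5317, 9497, 7415, 6254 and 6223 in AL corneas 1 to 5, a mean of 6941 ± 1611 (SD, n = 5). They were 8557, 9075, 11536, 13765 and 10722 in CR corneas 1, 2, 3, 4 and 7, a mean of 10731 ± 2081 (SD, n = 5). All CR corneas exceeded the AL mean, 3 exceeded every AL cornea, and AL 2 overlapped the other two. The log2 change was 0.64 ± 0.15 (SE), with a 95% interval of 0.31 to 0.96. With the percentage of genes at 0 added to the model the Aqp3 change was 0.67 ± 0.21 (SE), beside the -0.32 of Aqp5.

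The makeup of the family in the cornea differed by diet accordingly. Aqp5 made up 81.2% ± 4.5 of aquaporin reads per kilobase under AL and 65.2% ± 4.5 under CR (SD, n = 5 each), and the Aqp3 share was 18.5% ± 4.5 and 34.4% ± 4.4. The Aqp5 to Aqp3 read ratio was 4.82 to 9.63 in AL and 2.18 to 3.57 in CR corneas, with no overlap, so AL 4 fell with its own group on this measure. In the conjunctiva the ratio was 0.122 to 0.177 under AL and 0.191 to 0.325 under CR, also with no overlap. The ratio thus came nearer to 1 under CR from opposite sides. It comes from the contrast on which the genes were picked and carries no test.

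Conjunctival Aqp3 showed no separation by diet. Normalized counts were 8206, 11236, 8680 and 9297 in AL conjunctivas 1, 3, 4 and 5, a mean of 9354 ± 1332 (SD, n = 4). They were 11148, 9432, 5976, 9944 and 6960 in CR conjunctivas 1 to 5, a mean of 8692 ± 2152 (SD, n = 5). CR 3 and CR 5 were below every AL library and the other 3 were within the AL range. The log2 change was -0.13 ± 0.18 (SE), with a 95% interval of -0.52 to 0.25.

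**Figure D4:**
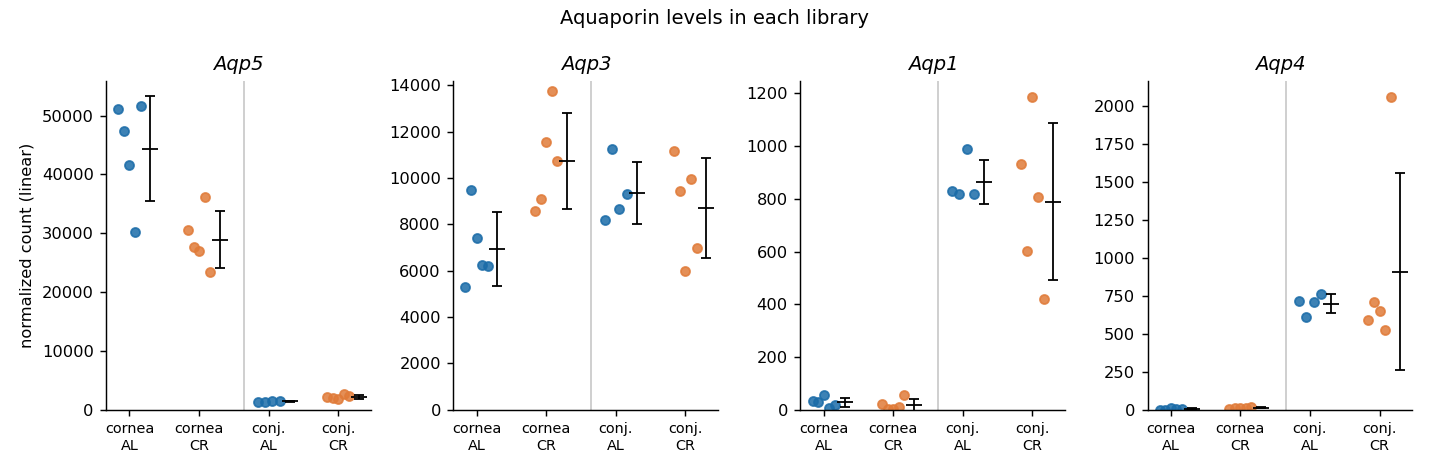
Normalized count (y axis, linear) of Aqp5, Aqp3, Aqp1 and Aqp4 in each library, by tissue and diet (x axis), with a point per library and the group mean ± SD in black. The vertical line parts the tissues, whose tables were scaled separately. Aqp5 runs from 23368 to 51562 in the corneas and from 1246 to 2625 in the conjunctivas, and Aqp4 has 1 high point at 2063.

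Aqp1, the water channel of vessels and stroma, was a conjunctival gene in these libraries. AL conjunctivas 1, 3, 4 and 5 had 828, 817, 991 and 820 normalized counts, a mean of 864 ± 84.6 (SD, n = 4). CR conjunctivas 1 to 5 had 934, 602, 1188, 806 and 419, a mean of 790 ± 297 (SD, n = 5). The CR libraries spread over a range that held all AL values, with a coefficient of variation of 37.6% against 9.80%. The log2 change was -0.21 ± 0.25 (SE), with a 95% interval of -0.74 to 0.32. Summed markers of blood endothelium moved with it: they were lowest in CR 5 at 893, highest in CR 3 at 3410, and 1951 to 2856 in the other conjunctivas. Without CR 5 the Aqp1 change was -0.01, and the part of vessel content was not tested.

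In the cornea Aqp1 was near the limit of counting. AL corneas 1 to 5 had 31.9, 28.4, 55.7, 7.96 and 18.5 normalized counts, and CR corneas 1, 2, 3, 4 and 7 had 23.0, 1.88, 3.79, 11.2 and 57.6. CR 2 was under the limit that a count of 0 allows, and the diets overlapped across their whole range. The log2 change was -1.07 ± 0.78 (SE), with a 95% interval of -2.69 to 0.56, and it was -0.56 without CR 2 and -1.64 without CR 7. Blood endothelium markers summed to 7.15 to 82.1 in the corneas, and 1 of the 11 passed the filter.

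Aqp4, the channel anchored by the dystrophin complex in glia and muscle, was also conjunctival. AL conjunctivas 1, 3, 4 and 5 had 714, 610, 708 and 762 normalized counts, a mean of 699 ± 63.6 (SD, n = 4). CR conjunctivas 1 to 5 had 591, 712, 649, 529 and 2063, a mean of 909 ± 649 (SD, n = 5). CR 5 alone exceeded the AL range, and the other 4 CR libraries lay between 529 and 712. The log2 change was 0.17 ± 0.36 (SE), with a 95% interval of -0.63 to 0.97, and without CR 5 it was -0.18 ± 0.15 (SE), so 1 library set the direction.

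Conjunctiva CR 5 differed in several cell type lists. Its meibomian markers summed to 11370, its blood endothelium markers to 893 and its fibroblast markers to 26195, the last 2 being the lowest of the 9 conjunctivas. Skeletal muscle markers, a second place where Aqp4 is known, summed to 15675 in CR 5, 14549 in AL 3 and 145505 in CR 3, while Aqp4 was at 2063, 610 and 649 in these libraries. Aqp5 in CR 5 lay inside the range of the other CR conjunctivas, and its change without CR 5 was 0.58. The part of gland tissue in the Aqp4 value was not tested.

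Corneal Aqp4 did not pass the filter of a mean of 10 normalized counts. AL corneas 1 to 5 had 0, 0, 12, 4 and 4 reads, and CR corneas 1, 2, 3, 4 and 7 had 7, 11, 14, 14 and 17. AL 1 and AL 2 are compatible with up to 3 reads each, and AL 3 lay inside the CR range. No fold change is given at these counts.

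**Figure D5:**
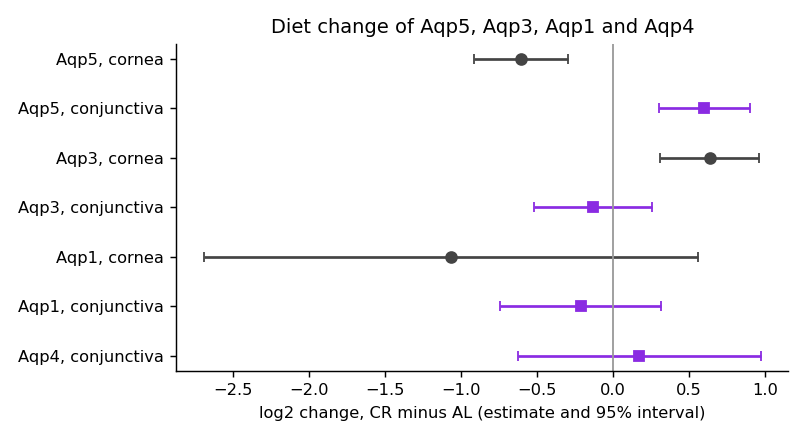
Log2 change, CR minus AL (x axis), of Aqp5, Aqp3, Aqp1 and Aqp4 in each tissue where they passed the filter (y axis), with points for the estimates and bars for the 95% intervals. The intervals of Aqp5 lie below 0 in the cornea (-0.91 to -0.30) and above 0 in the conjunctiva (0.30 to 0.90), that of corneal Aqp3 lies above 0, and the other 4 cross it.

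Ordered per kilobase, corneal levels over the AL libraries were 17075 ± 3428 normalized counts for Aqp5, 3795 ± 881 for Aqp3, 59.9 ± 20.2 for Aqp2, 10.8 ± 6.8 for Aqp1, 8.04 ± 4.82 for Aqp7 and 0.67 ± 0.86 for Aqp4 (SD, n = 5). Aqp1 and Aqp7 did not differ beyond their spread, and the other neighbours were apart by more than 1 SD on either side. In AL conjunctivas the order was Aqp3 at 5115 ± 728, Aqp5 at 542 ± 50, Aqp1 at 329 ± 32, Aqp4 at 112 ± 10 and Aqp9 at 10.3 ± 1.8 normalized counts per kilobase (SD, n = 4), with no overlap of neighbours within 1 SD.

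Of the other 8 aquaporins, 2 passed the filter in each tissue. In the cornea Aqp2, the vasopressin-regulated channel of the kidney and the neighbour of Aqp5, had 48.0 to 127 normalized counts under AL and 8.76 to 115 under CR, and its reads were 0.0287% to 0.362% of those of Aqp5. Aqp7, a glycerol channel, had 0 to 34.1 under AL and 0 to 18.6 under CR. Aqp9, also a glycerol channel, had 33.0 to 50.0 under AL and 4.87 to 49.9 under CR in the conjunctiva and 0 in every cornea. Aqp11 passed the filter in the conjunctiva, at 7.22 ± 6.39 under AL (SD, n = 4) and 13.8 ± 10.2 under CR (SD, n = 5). Of the 2 tested in each tissue 0 were called by limma, 0 had an unadjusted p under 0.05, and 0 were called by voom. Nothing is read from these counts, as limma called 1.22% of all corneal and 0.359% of all conjunctival genes tested. Mip and Aqp12 were at 0 in all corneas, and Aqp6 and Aqp12 in all conjunctivas.

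Water follows ions, so genes that drive fluid were counted beside the channels. An unadjusted p under 0.05 was reached by 18.1% of all corneal and 9.4% of all conjunctival genes tested. Limma called 1.22% and 0.359% of them, so a short list with 0 called is not read as a result. Of 19 ion transport genes, 16 were tested in the cornea with 0 called and 3 at an unadjusted p under 0.05, and 17 in the conjunctiva with 1 called and 3 at an unadjusted p under 0.05. The called gene was Atp1b1, the beta subunit of the sodium pump. Its normalized counts were 4986, 4053, 5148 and 5992 in AL conjunctivas 1, 3, 4 and 5 and 8804, 8964, 10033, 6547 and 9499 in CR conjunctivas 1 to 5, with no overlap. Atp1b1 rose by 0.80 ± 0.16 (SE) on the log2 scale (limma with Benjamini-Hochberg adjustment, adjusted p = 0.0372). The call was lost under 9 of 19 other settings, with adjusted p from 0.0059 to 0.238 and a log2 change of 0.69 to 0.90. In the cornea its mean was 162 ± 44.5 under AL and 348 ± 155 under CR (SD, n = 5 each), a log2 difference of 1.01 ± 0.33 (SE) that was not called (limma, adjusted p = 0.143). Corneal genes of the ion transport list had a median log2 change of -0.08, beside -0.03 over all genes tested, and conjunctival ones 0.09, beside -0.02.

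None of the other 3 lists had a called gene in either tissue, by limma or by voom. With limma calling 1.22% of all corneal and 0.359% of all conjunctival genes tested, nothing is read from that. Of 13 genes of cell volume and tonicity sensing, 12 were tested in each tissue, with 1 at an unadjusted p under 0.05 in each and medians of 0.13 in the cornea and 0.08 in the conjunctiva. Of 11 genes of glycerol handling, which bear on the substrate of Aqp3, 10 were tested in the cornea and 11 in the conjunctiva, with 2 and 1 at an unadjusted p under 0.05 and medians of -0.05 and 0.15. Of 10 genes of the dystrophin complex, the anchor of Aqp4, 9 were tested in each tissue, with 3 and 0 at an unadjusted p under 0.05 and medians of 0.31 and 0.25.

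The genes most like each member were taken as the 3 tested genes with the highest Pearson correlation of log2 values across the libraries of a tissue, among genes with a mean of at least 50. These libraries share their scaling and the diet contrast, and each list is the top of 9712 corneal or 11286 conjunctival genes compared, so the values are descriptions. In the 10 corneas, Aqp5 was most like Puf60 (r = 0.975), a splicing factor, Atp6ap1 (r = 0.973), an accessory subunit of the vacuolar proton pump, and Triap1 (r = 0.971). For Aqp3 these included Grhl3 (r = 0.911), an epithelial transcription factor, and Cttn (r = 0.906), an actin-binding protein. With each diet group centred on its own mean, r was 0.798 for Grhl3 and 0.761 for Cttn. The genes named for Aqp5 kept r from 0.940 to 0.956 on that scale. Aqp1, which had only 2 to 62 reads in each cornea, was most like Glrx5, Nisch and Muc1, at r from 0.929 to 0.940.

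In the 9 conjunctivas none of these genes recurred. There Aqp5 was most like Ankrd12 (r = 0.972), Tmem57 (r = 0.963) and Arid5b (r = 0.948). With each diet group centred, these values were 0.901, 0.821 and 0.843. Aqp3 was most like Spcs3, Grk6 and Tmtc3, at r from 0.931 to 0.944, and Aqp1 most like Habp4, Gorasp2 and Pdzrn3, at r from 0.952 to 0.957. Aqp4 was most like Cst6, Plac8 and Ahctf1, at r from 0.945 to 0.957, over libraries of which CR 5 stands apart in Aqp4.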

How the data were processed

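RNA from 10 corneal epithelium and 9 conjunctiva samples was sequenced in bulk. The authors trimmed reads with cutadapt, aligned them to mm10 with STAR, counted them per gene with HTSeq and scaled counts by DESeq2 size factors, in the ROSALIND platform. The submitters' processing notes name GRCm39 and DESeq2. Versions are not given in the sources used here. The deposited values are log2 of the scaled count plus 1, in 1 table per tissue. Whole reads were recovered from 100% of the values (tolerance 0.1 read). No column of the authors' own comparisons was used.

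Diets were compared within each tissue by limma 3.58.1 (R 4.3.3) on the deposited log2 values, with intensity trend and robust moderation, for genes averaging 10 normalized counts or more. Genes were called at a Benjamini-Hochberg adjusted p under 0.05 and a fold over 1.5. Fold changes are on the log2(value + 1) scale, which understates changes of low genes. The count tests of DESeq2 and edgeR were not run, since the deposited unit is log2, and voom on the recovered reads was an alternative. Read ratios were compared between tissues by exact two-sided permutation tests in scipy 1.17.1, adjusted over 12 ratios. The fitting code was tested on simulated data. The members, lists and tests were chosen with earlier results of these data known. Named by rule were every aquaporin, the called members of each pathway list and the 3 genes most like each member, of which 1 is not reported here. Animal numbers in the titles were taken to mark separate animals, and otherwise p-values measure only the spread between samples. Exon lengths are from GENCODE M21, positions and sequences from RefSeq on GRCm38.p6, the build of mm10. Alternatives were other pseudocounts, filters and scalings, array weights, voom, a replicate block, leaving out each library, and, added after seeing the data, the percentage of genes at 0 reads in the model. Limits at low counts cover counting error only. Intervals of log2 changes come from the standard errors of the limma fits, which rest on the moderated spread between libraries.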

Additional observations from a re-analysis of the deposited data

Results flagged for a closer look

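A gap test on log2 values (Dixon, 95% level) was run on 24 groups of 4 or 5 libraries for the tested aquaporins and corneal Aqp4, and singled out 3 libraries, where chance gives about 1 in 20 groups. Aqp4 in conjunctiva CR 5 was at 2063 normalized counts, against 529 to 712 in the other CR conjunctivas. Aqp1 in conjunctiva AL 4 was at 991, against 817 to 828 in the other AL conjunctivas. Aqp7 in cornea AL 4 was at 0, against 20.6 to 34.1 in the other AL corneas, and this library also had more genes at 0 reads than those.

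Aqp5 changed by -0.61 on the log2 scale in the cornea and by 0.60 in the conjunctiva. All 5 CR corneas lay below the AL mean and all 5 CR conjunctivas above it. The difference between tissues was not tested, since Aqp5 was chosen for it.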

How the results depend on the processing

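Called genes numbered 150 in the cornea and 50 in the conjunctiva. Array weights gave 705 and 149, and the replicate block 46 and 10. With the percentage of genes at 0 reads in the model, 62 corneal genes were called. Leaving out 1 library gave 53 to 536 corneal genes, the most without AL 4, then 309 without CR 1, and 26 to 127 conjunctival genes, the most without CR 3, then 76 without CR 5. Other pseudocounts, filters and scalings, voom and the p-value alone gave counts within 1.5 times of these. Same-numbered AL and CR libraries deviated together at r = 0.288, -0.161, -0.168 and -0.297 in the cornea and -0.044, -0.0619, -0.048 and 0.0526 in the conjunctiva, so the numbers do not pair the diets. The corneal Aqp5 change was -0.32 with the percentage of genes at 0 in the model and -0.47 with the replicate block. Both Aqp5 changes and the corneal Aqp3 change kept their signs under all settings run, as did corneal Aqp1, which ranged from -1.75 to -0.37, while conjunctival Aqp4 ranged from -0.18 to 0.32, conjunctival Aqp1 from -0.38 to 0.08 and conjunctival Aqp3 from -0.28 to 0.0041. Leaving out a library gave -0.74 to -0.53 for corneal Aqp5 and 0.53 to 0.66 for conjunctival Aqp5. Of the 12 ratios between tissues, 11 passed the adjusted p without any 1 library and with 1 read added. With group medians 0 passed: the smallest exact permutation p was 0.0476, and adjustment over 12 ratios made it 0.0519. With libraries paired by title, a replicate block across tissues, 0 passed (exact permutation test, adjusted p = 0.136 for 11). There the smallest unadjusted p was 0.125, the lowest that 4 pairs allow. Depth limits Aqp1 and Aqp4 in the cornea, where single libraries held 0 to 62 reads.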
